A study of Mus musculus with 9 samples.

Results

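The genes described here encode 10 subunits of the integrins: the α subunits Itga3, Itga4, Itga5, Itga6, Itgal and Itgav and the β subunits Itgb1, Itgb2, Itgb3 and Itgb5. They were selected by gene symbol from a table of 54532 genes, and all 10 were found in it. The choice was made with earlier results of these data known. The cells were BV2, a mouse microglial line that was immortalized, and their RNA was sequenced as 3 libraries in each of 3 groups. The control group (Ctrl) was kept in complete medium with 10% serum. The oxygen-glucose deprivation group (OGD) was kept in low-glucose medium with 4% serum in a chamber at 4% O2. In the third group, OGD + A-485, the same deprivation was combined with A-485, an inhibitor of the histone acetyltransferase P300, which also transfers lactyl groups to histones. A duration of 24 h and a dose of 50 μM are those the study describes for its preceding experiments, and they are taken to hold for the sequenced cells. Oxygen, glucose and serum changed together between the Ctrl and OGD groups, so their contributions cannot be told apart. All groups are the same cell line, and no group received A-485 without OGD. The labels number the libraries of a group but do not say that they came from separate cultures, so p-values here measure the spread between these libraries, which may be technical.

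Integrins are cell surface receptors made of an α and a β chain, which are separate gene products and reach the surface only as a pair. The β1 chain pairs with many α chains and forms receptors for laminin (with α3 and α6), for fibronectin (with α5) and for VCAM-1 and fibronectin (with α4). The β2 chain is found on leukocytes, where it pairs with αL to bind ICAMs and with αM or αX to bind complement fragments, and the αv chain pairs with β1, β3 or β5 to bind vitronectin, osteopontin and latent TGF-β. In microglia, integrins take part in adhesion to matrix and vessels, in the uptake of opsonized and dying cells and in movement of the processes. Talin and kindlin bind the tail of the β chain and switch the receptor to its active shape.

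The reads counted on genes lay between 12593250 and 16091038 per library, with group medians of 13653401 (Ctrl), 12842430 (OGD) and 15208237 (OGD + A-485), and no libraries were identical. Of 15 microglia and macrophage markers, 12 had a mean of at least 1 FPKM (fragments relative to the length of the gene and the depth of the library) in Ctrl and in OGD and 13 in OGD + A-485. Aif1 averaged 0.613, 0.889 and 2.57 FPKM in the 3 groups, and P2ry12 and Sall1, which mark microglia in the brain, had group means of at most 0.244 and 0.00391 FPKM. The summed level of this list was 602 to 621 FPKM in the Ctrl libraries, 834 to 854 in the OGD libraries and 2964 to 3094 in the OGD + A-485 libraries, where Lyz2 alone averaged 1698 FPKM. No listed marker of astrocytes, neurons, fibroblasts, endothelium, epithelium or lymphocytes reached a mean of 1 FPKM in any group. Among oligodendrocyte markers, Mbp averaged 1.04, 1.10 and 0.737 FPKM, and Mog and Olig2 were at 0. In the platelet list, Pf4 averaged 26.7 (Ctrl), 40.1 (OGD) and 76.8 FPKM (OGD + A-485), the remaining 4 genes were below 1 FPKM, and Gp1bb was at 0. The part of these shifts in the integrin values was not tested. The RNA is from bulk cultures, in which fewer cells that carry a transcript and less transcript per cell cannot be told apart.

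On the GRCm38 build, the members lie on 7 chromosomes. Itga6 (chr2:71745616-71858416), Itga4 (chr2:79255426-79333123) and Itgav (chr2:83724397-83806916) are on the plus strand of chromosome 2. Itga3 (chr11:95044474-95076801) is on the minus strand of chromosome 11 and Itgb3 (chr11:104608000-104670476) on its plus strand. Itga5 (chr15:103344286-103366763) is on a minus strand, and Itgal (chr7:127296260-127335138), Itgb1 (chr8:128685654-128733200), Itgb2 (chr10:77530252-77565708) and Itgb5 (chr16:33829665-33949338) are on plus strands. Other annotated genes overlap Itga4, Itga5, Itga6 and Itgav, of which the highest, Dnmt3l-ps1 within Itgav, had a mean of 0.397 FPKM. Whether the counting used strand is not given in the sources used here, so reads of such partners could not be separated with certainty.

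The 250 bases before the annotated start were taken from RefSeq (GRCm38.p6), which held such a window for 6 of the 10 members, 7 windows in all. Itga6, Itgal, Itgb2 and Itgb3 had no entry. Windows are shown for Itga5, Itgav and Itga3, whose RNA rose together under OGD, and for Itga4, whose RNA fell. They are written 5′ to 3′ on the strand of the gene, and capitals mark matches to the motifs searched, which on the other strand read TTCCTC for GAGGAA and CCGCCC for GGGCGG. Itga5 is at chr15:103366792-103367041 (minus strand), Itgav at chr2:83724147-83724396 (plus), Itga3 at chr11:95076802-95076964 (minus, the 163 bases outside the annotated gene) and Itga4 at chr2:79255176-79255425 (plus).
Itga5: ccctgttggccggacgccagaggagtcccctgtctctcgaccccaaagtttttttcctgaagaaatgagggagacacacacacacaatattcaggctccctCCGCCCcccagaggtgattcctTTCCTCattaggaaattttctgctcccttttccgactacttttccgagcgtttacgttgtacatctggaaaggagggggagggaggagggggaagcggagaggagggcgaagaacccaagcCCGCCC
Itgav: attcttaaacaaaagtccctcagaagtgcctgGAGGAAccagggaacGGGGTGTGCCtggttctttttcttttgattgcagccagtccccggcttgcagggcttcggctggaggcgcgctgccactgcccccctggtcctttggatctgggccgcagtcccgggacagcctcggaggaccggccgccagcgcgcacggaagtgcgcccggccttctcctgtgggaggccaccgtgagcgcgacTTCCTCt
Itga3: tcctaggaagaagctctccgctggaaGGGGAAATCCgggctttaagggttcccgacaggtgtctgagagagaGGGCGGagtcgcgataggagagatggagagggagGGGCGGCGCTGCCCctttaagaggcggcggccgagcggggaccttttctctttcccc
Itga4: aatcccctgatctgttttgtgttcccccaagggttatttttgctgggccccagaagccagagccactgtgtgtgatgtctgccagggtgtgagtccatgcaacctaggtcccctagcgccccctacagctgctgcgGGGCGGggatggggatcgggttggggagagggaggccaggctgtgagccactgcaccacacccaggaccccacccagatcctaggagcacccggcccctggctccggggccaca

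Of the motifs searched on both strands, ACGTG (the core bound by hypoxia-inducible factors) is in 16.6% of 32851 RefSeq windows of this length, TGACTCA (AP-1) in 4.46%, GAGGAA (PU.1 and other ETS factors) in 23.3%, GGGCGG (Sp1) in 32.7% and the NF-κB motif (3 G, any 5 bases, 2 C) in 45.8%. None of the 7 member windows holds ACGTG or TGACTCA. The Itga5 window holds 1 GAGGAA and 2 GGGCGG, and the Itga4 window holds 1 GGGCGG. The Itgav window holds 2 GAGGAA and 1 NF-κB motif. The Itga3 sequence shown holds 2 GGGCGG and 2 NF-κB motifs, 1 of which shares bases with a GGGCGG match. At 163 bases, it is shorter than the windows behind the shares, and its full window of 250 bases holds 3 GGGCGG. A second Itga3 window, not shown, holds 1 GAGGAA, 1 GGGCGG and 1 NF-κB motif. These matches describe letters in a window and are not measured binding sites.

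To examine which integrin subunits changed under deprivation, the OGD and Ctrl groups were compared first. With the thresholds the study set, a call required an unadjusted p below 0.01 and an absolute log2 fold change over 0.5. The p came from a limma fit of log2(FPKM + 0.1) over 16123 genes, those averaging 0.2 FPKM or more. All 10 members passed that filter. With OGD, 6 members were called higher (Itga3, Itga5, Itga6, Itgav, Itgb2 and Itgb3), where 11.2% of all genes tested were, and 1 was called lower (Itga4), where 9.81% were. Itgal, Itgb1 and Itgb5 were not called. The median log2 fold change of the 10 members was 0.95, against 0.01 over all genes tested. As the members were chosen with earlier results known, these contrasts with all genes are descriptive. The libraries of both groups did not overlap for 8 members, and for 55.4% of all genes tested.

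Among the β subunits, the leukocyte chain and the αv partner β3 were higher with OGD and the others were not called. Itgb2, the β2 chain, was at 33.5, 32.8 and 30.1 FPKM in the Ctrl libraries and at 70.0, 75.6 and 75.3 in the OGD libraries. Itgb3 was at 3.18, 2.95 and 2.55 FPKM in Ctrl and at 7.12, 7.54 and 8.35 in OGD. For each of these genes, all OGD libraries lay above all Ctrl libraries. The means of Itgb2 were 32.1 ± 1.79 (SD, n = 3) and 73.7 ± 3.14 FPKM, a 2.29-fold difference (log2 fold change 1.20, SE 0.05, limma adjusted p = 6.61e-07). Those of Itgb3 were 2.90 ± 0.319 and 7.67 ± 0.624 FPKM, a 2.65-fold difference (1.38, SE 0.11, adjusted p = 1.78e-05) resting on 244 to 251 reads per Ctrl library and 535 to 693 per OGD library.

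Itgb1 and Itgb5 were not called. Itgb1, the chain shared by most matrix receptors and the most abundant member, was at 99.1, 99.2 and 103 FPKM in Ctrl and at 107, 114 and 103 in OGD. These ranges overlapped, and the log2 fold change was 0.10 (SE 0.05, limma adjusted p = 0.111). Itgb5, the other vitronectin-receptor partner of αv, was at 14.6, 16.0 and 15.7 FPKM in Ctrl and at 13.5, 12.7 and 13.6 in OGD. Its OGD libraries all lay below its Ctrl libraries, but the log2 fold change of -0.21 (SE 0.05, adjusted p = 0.0093) was under the size required for a call.

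Among the α members that pair with β1, Itga5, Itga6 and Itga3 were higher with OGD, and Itga4, whose receptor binds VCAM-1 and fibronectin, was lower. Itga5, the α chain of the fibronectin receptor, was at 23.7, 24.6 and 22.4 FPKM in Ctrl and at 51.8, 52.4 and 56.6 in OGD. Itga6, a laminin receptor chain, was at 11.5, 11.7 and 11.4 FPKM in Ctrl and at 23.0, 25.8 and 22.2 in OGD. All OGD libraries of both genes were above all Ctrl libraries, with means of 23.6 ± 1.07 and 53.6 ± 2.60 FPKM for Itga5 (2.27-fold, log2 fold change 1.18, SE 0.05, limma adjusted p = 1.21e-06) and of 11.5 ± 0.194 and 23.7 ± 1.89 for Itga6 (2.06-fold, 1.03, SE 0.06, adjusted p = 2.55e-06). Itga3, another laminin receptor chain, was at 0.682, 0.615 and 0.497 FPKM in Ctrl and at 1.80, 1.40 and 1.71 in OGD. It was the lowest member, at 46 to 52 reads per Ctrl library and 104 to 137 per OGD library, yet its groups did not overlap (2.74-fold, log2 fold change 1.32, SE 0.23, adjusted p = 0.00157).

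Itga4 was the 1 member called lower with OGD. Its libraries were at 10.1, 9.73 and 10.6 FPKM in Ctrl and at 4.48, 4.39 and 4.32 in OGD. Every OGD library was below every Ctrl library, and the means were 10.1 ± 0.419 and 4.40 ± 0.0837 FPKM (log2 fold change -1.19, SE 0.06, limma adjusted p = 2.32e-06), 2.31-fold lower with OGD.

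Itgav, the common partner of β1, β3 and β5, was at 15.2, 14.1 and 15.7 FPKM in Ctrl and at 26.9, 30.2 and 26.1 in OGD. The groups were apart, with means of 15.0 ± 0.827 and 27.7 ± 2.16 FPKM (1.84-fold, log2 fold change 0.88, SE 0.07, limma adjusted p = 1.55e-05). Itgal, the αL chain of the ICAM receptor, was at 10.6, 11.2 and 10.6 FPKM in Ctrl and at 9.57, 10.5 and 10.7 in OGD. Here the libraries overlapped and the log2 fold change was -0.08 (SE 0.06, adjusted p = 0.336), although its partner Itgb2 had risen. With the median of the 50 neighbouring genes removed, the sign of the Itgal value turned (0.02).

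**Figure D1:**
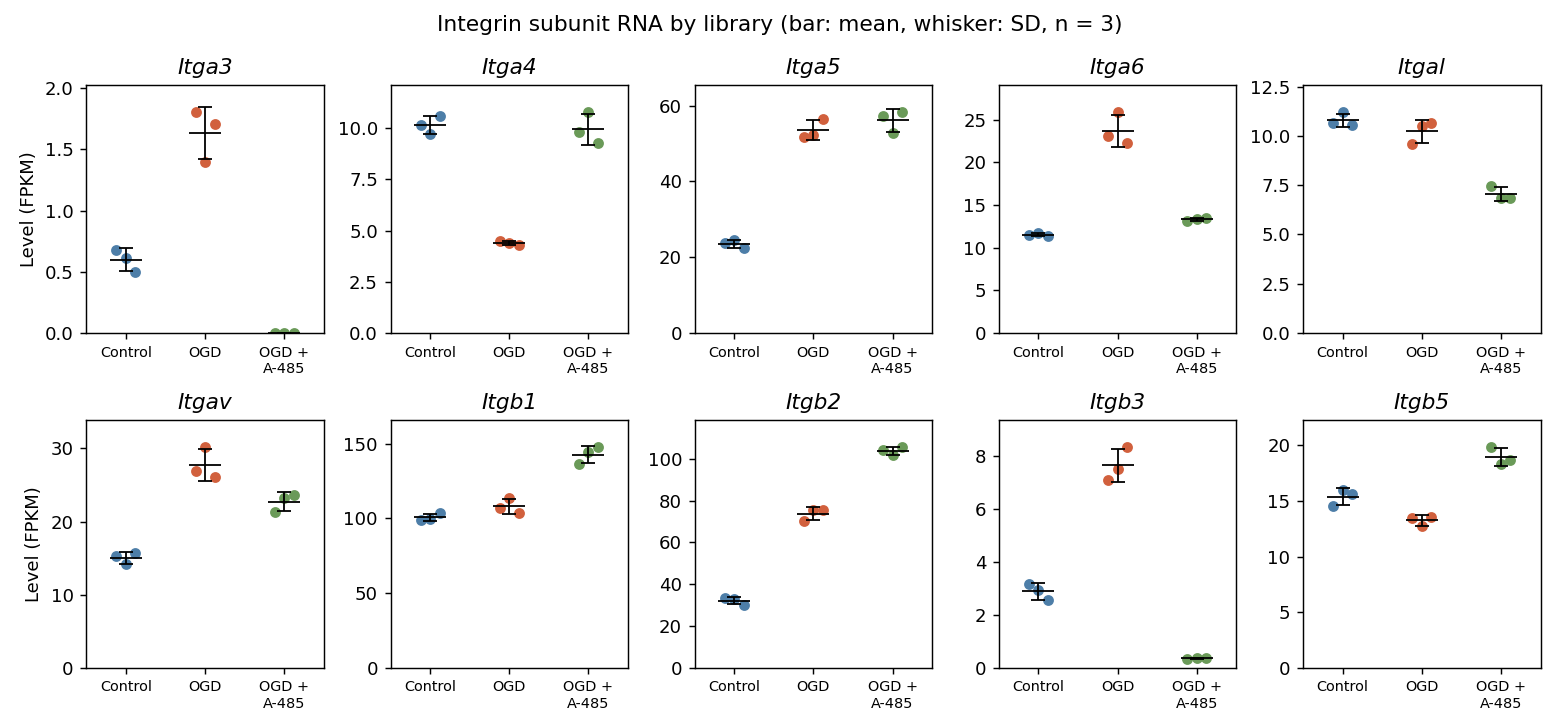
Level of each of the 10 subunit genes in FPKM (vertical axes, each starting at 0) in each library, by group (3 libraries each). Points are libraries, and bars and whiskers are the mean and SD. Itgb3 averaged 2.90, 7.67 and 0.367 FPKM in the 3 groups, Itga4 averaged 10.1, 4.40 and 9.95, and Itgb2 averaged 32.1, 73.7 and 104.

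The second comparison, OGD + A-485 against OGD, asked how the subunits stood when P300 was inhibited during deprivation. It shares the OGD libraries with the first, so opposite signs in the 2 comparisons are not independent of each other. With A-485, 2 members were called higher (Itga4 and Itgb5), where 12.2% of all genes tested were, and 4 were called lower (Itga3, Itga6, Itgal and Itgb3), where 13.4% were. Itga5, Itgav, Itgb1 and Itgb2 were not called. The median log2 fold change of the members was -0.11, against 0.01 over all genes tested. Groups did not overlap for 9 members, and for 56.8% of all genes tested.

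Itgb3 and Itga3 had the largest differences of the 10 members. Itgb3 was at 0.348, 0.365 and 0.388 FPKM in the OGD + A-485 libraries, against 7.12 to 8.35 in the OGD libraries. The mean of 0.367 ± 0.020 FPKM rested on 30 to 34 reads per library and was 20.9-fold below the OGD mean (log2 fold change -4.05, SE 0.11, limma adjusted p = 3.79e-08). Itga3 had 0 reads in each of the 3 OGD + A-485 libraries, against 104 to 137 reads in the OGD libraries. Set against the 3 reads that a count of 0 in the group allows, which cover counting error only, the Itga3 level was at least 139.6-fold lower. Its fitted log2 fold change of -4.11 (adjusted p = 1.53e-06) depends on the pseudocount and ranged from -1.40 with a pseudocount of 1 to -7.35 with 0.01.

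The remaining called α subunits changed by smaller amounts. Itga6 was at 13.1, 13.3 and 13.5 FPKM with OGD + A-485, below all OGD libraries (log2 fold change -0.83, SE 0.06, limma adjusted p = 4.52e-06). Itgal was at 7.46, 6.84 and 6.87 FPKM, also below all OGD libraries (-0.53, SE 0.06, adjusted p = 8.69e-05). The Itgal value was close to the size threshold and fell under it with a pseudocount of 1 (-0.48). Itga4 went the other way, with 9.82, 10.8 and 9.27 FPKM, all above the OGD libraries. Its mean of 9.95 ± 0.752 FPKM was 2.26-fold the OGD mean (1.16, SE 0.06, adjusted p = 1.30e-06).

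Each of 3 further subunits that had risen with OGD was not called in the comparison with A-485. Itga5 was at 57.3, 52.7 and 58.2 FPKM and overlapped the OGD libraries (log2 fold change 0.07, SE 0.05, limma adjusted p = 0.364), with the sign turned under quantile normalization (-0.08) and in a fit of the reads with limma-voom (-0.001). Itgav was at 21.3, 23.2 and 23.6 FPKM, below all OGD libraries, by a log2 fold change of -0.28 (SE 0.07, adjusted p = 0.00769). Itgb2 was at 104, 102 and 106 FPKM, above all OGD libraries, and its log2 fold change of 0.496 (SE 0.05, adjusted p = 4.37e-05) lay just under the threshold. When OGD replicate 2, OGD replicate 3 or OGD + A-485 replicate 2 was left out, Itgb2 was called, at 0.52, 0.51 and 0.51.

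Of the β chains not called with OGD, Itgb5 was called higher with A-485 and Itgb1 lay under the size threshold. Itgb5 was at 19.8, 18.3 and 18.7 FPKM, above all OGD libraries (log2 fold change 0.51, SE 0.05, limma adjusted p = 5.30e-05). Itgb1 was at 136, 144 and 148 FPKM, also above all OGD libraries, with a log2 fold change of 0.40 (SE 0.05, adjusted p = 0.00012) that was not called. The Itgb5 call ended in 7 alternatives, among them scaling to library totals (0.45), quantile normalization (0.45) and limma-voom (0.45), and without OGD + A-485 replicate 1 (0.48) or OGD replicate 2 (0.48).

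**Figure D2:**
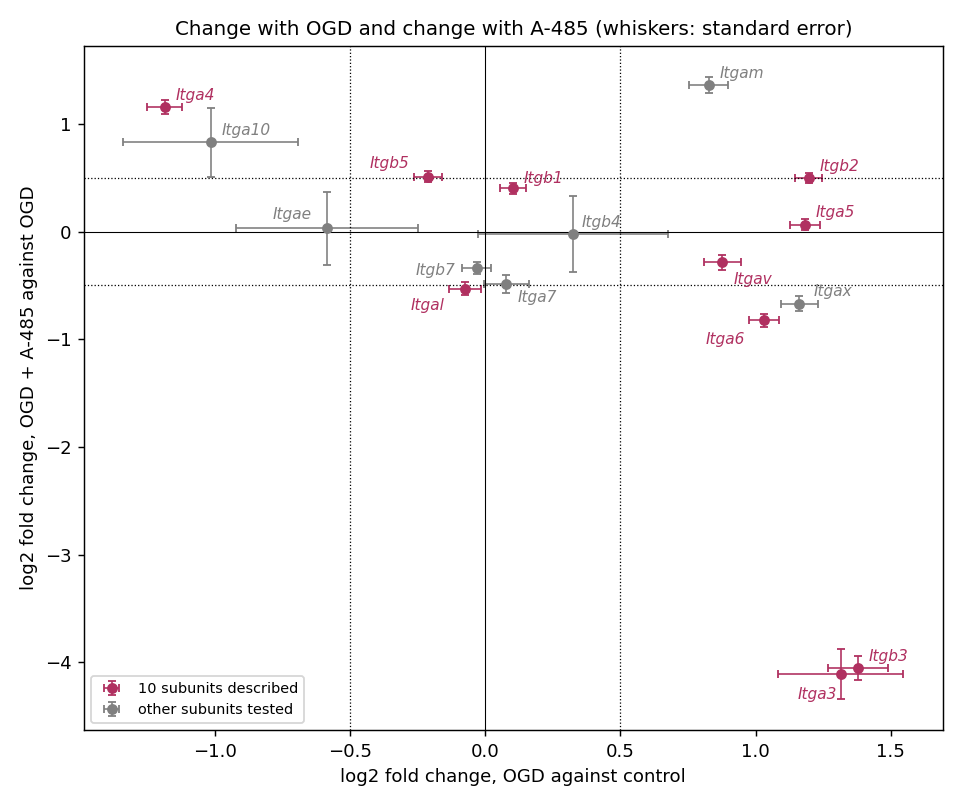
Log2 fold change of OGD against control (horizontal axis) and of OGD + A-485 against OGD (vertical axis) for the 10 subunit genes (red) and 7 other subunit genes tested (grey), with standard errors as whiskers and dotted lines at an absolute value of 0.5. The axes share the OGD libraries. Itgb3 lies at 1.38 and -4.05, Itga4 at -1.19 and 1.16 and Itgb2 at 1.20 and 0.496, while the vertical position of Itga3, which had 0 reads with A-485, depends on the pseudocount.

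Set against the Ctrl group, which shares libraries with the first comparison, the OGD + A-485 group had 4 members called higher (Itga5, Itgav, Itgb1 and Itgb2; 17.0% of all genes tested were) and 3 called lower (Itga3, Itgal and Itgb3; 16.6% were). Itgb2 was 3.23-fold above Ctrl (log2 fold change 1.69, SE 0.05, limma adjusted p = 2.92e-08), Itga5 2.38-fold (1.25, adjusted p = 2.19e-07) and Itgav 1.51-fold (0.59, adjusted p = 8.19e-05). Itgb1 was just past the threshold (0.50, adjusted p = 2.02e-05), and after scaling to library totals neither Itgb1 (0.39) nor Itgav (0.48) was called. That scaling moved the median of all genes from 0.02 to -0.09 in this comparison. Itgb3 was 7.89-fold below Ctrl (-2.68, adjusted p = 1.63e-07), and Itga3 at least 50.5-fold below it. The mean of Itga4 was 0.98 times that of Ctrl, with overlapping libraries (-0.03, SE 0.06, adjusted p = 0.716). Itga6 remained above all Ctrl libraries by a log2 fold change of 0.20 (adjusted p = 0.0121) and was not called, and neither was Itgb5 (0.30, adjusted p = 0.00107). The groups did not overlap for 9 members, and for 63.8% of all genes tested.

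On the FPKM scale, which divides by gene length, the order of the levels was Itgb1, Itgb2 and Itga5 at the top and Itga3 at the bottom in every group. In Ctrl, Itgb5 and Itgav followed without separation between them, then Itga6, then Itgal and Itga4 without separation, and then Itgb3. In OGD the order below Itga5 was Itgav, Itga6, Itgb5, Itgal, Itgb3 and Itga4, with no overlap between neighbours, so that Itga4 stood below Itgb3. With A-485 it was Itgav, Itgb5, Itga6, Itga4, Itgal and Itgb3, again without overlap between neighbours.

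To see how the composition of the subunit RNA shifted, FPKM was summed over the 18 α and the 8 β subunit genes of the table, members and others. The α sum was 92.2 ± 1.37 FPKM in Ctrl, 159 ± 2.74 in OGD and 163 ± 4.70 in OGD + A-485. It was 1.72-fold higher in OGD than in Ctrl without overlap (two-sided exact permutation p = 0.1, the smallest that 3 against 3 libraries allow) and overlapped between OGD and OGD + A-485 (p = 0.2). The β sum was 229.8 ± 2.15, 279.8 ± 3.90 and 327 ± 8.74 FPKM, with no overlap between groups (each exact permutation p = 0.1). Sums of RNA do not give the number of assembled receptors.

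Within the β sum, Itgb2 took 14.0% in Ctrl, 26.3% in OGD and 31.8% in OGD + A-485, while Itgb1 took 43.8%, 38.6% and 43.6%. The share of Itgb3 was 1.26%, 2.74% and 0.112%, and that of Itgb5 6.71%, 4.74% and 5.80%. Itgb7, a leukocyte chain that pairs with α4 and αE and is not among the members, took 34.2%, 27.5% and 18.6%. Within the α sum, Itga5 took 25.5%, 33.8% and 34.4%, and Itgav 16.3%, 17.5% and 13.9%. Itga6 took 12.5%, 14.9% and 8.16%, Itgal 11.7%, 6.46% and 4.34%, and Itga4 11%, 2.77% and 6.11%. Itgam and Itgax, the αM and αX chains, are not among the members. Itgam took 9.19%, 9.54% and 23.96% of the α sum, and Itgax 8.96%, 11.75% and 7.16%. With A-485, the Itgam share was the largest after that of Itga5. The Itgb2 share was thus lowest in Ctrl and highest with A-485, and the Itgal share was the reverse.

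**Figure D3:**
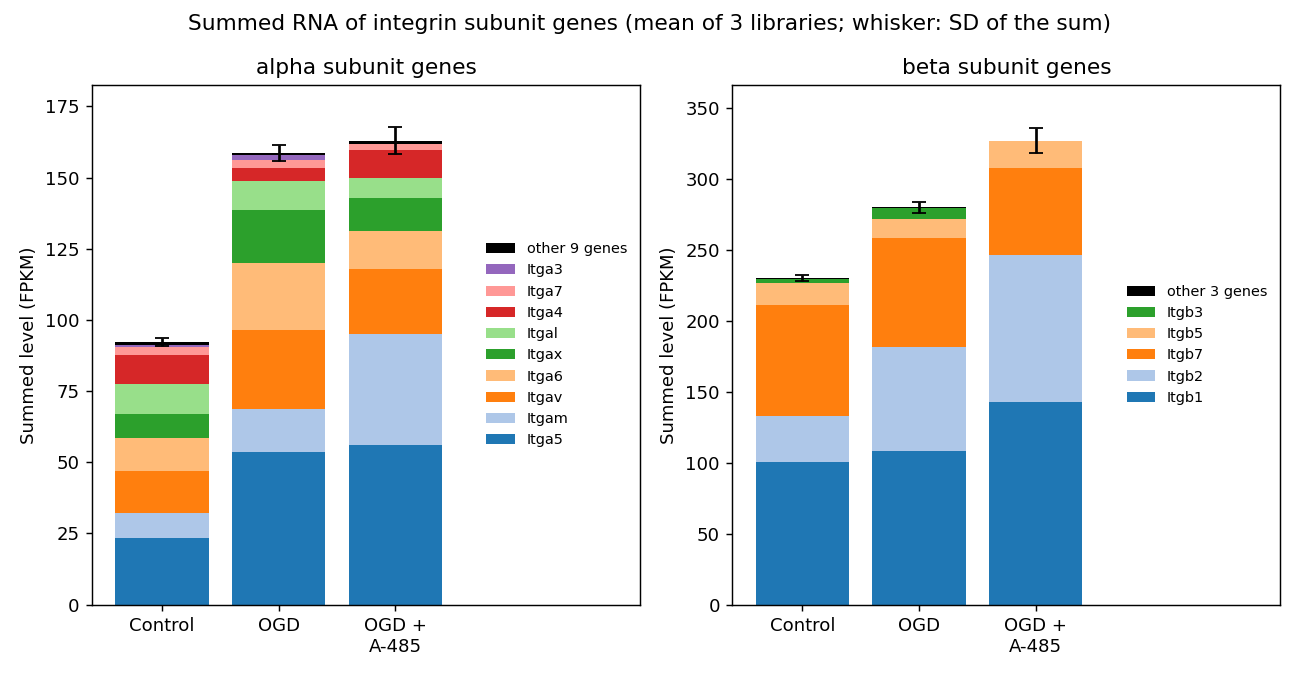
Summed level (vertical axis, FPKM) of the 18 α subunit genes (left) and the 8 β subunit genes (right) in the 3 groups, as the mean of 3 libraries stacked by gene, with the SD of the sum as a whisker. The α sum is 92.2, 159 and 163 FPKM, and Itgb2 is 14.0%, 26.3% and 31.8% of the β sum.

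Ratios of FPKM within a library do not depend on the scaling between libraries. In all, 11 ratios, of α to β transcripts and of Itgb3 to Itgb5, were compared in 3 comparisons, 33 tests. The tests took log2 ratios with 0.1 FPKM added to both genes, so they depend on this pseudocount where a gene is low. The ratios printed are without it. Of these, 32 showed no overlap between the groups, and each of those had a two-sided exact permutation p of 0.1 (Benjamini-Hochberg adjusted over the 33, 0.103), the smallest the design allows, so none can pass 0.05. Of all single genes tested, 55.4% (OGD against Ctrl) to 63.8% (OGD + A-485 against Ctrl) showed no overlap. The share for ratios of other gene pairs was not computed, and ratios that use the same gene are not independent. The ratio of Itgal to its partner Itgb2 was 0.337 ± 0.0172 in Ctrl, 0.139 ± 0.00249 in OGD and 0.0680 ± 0.00335 in OGD + A-485. For Itgam to Itgb2, the pair of complement receptor 3, it was 0.264, 0.206 and 0.376. For Itgax to Itgb2 it was 0.257 and 0.253 in Ctrl and OGD, which overlapped (exact permutation p = 0.9), and 0.112 with A-485. The αL ratio was thus highest in Ctrl and lowest with A-485, while the αM ratio was highest with A-485.

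For the β1 partners, the ratio of Itga5 to Itgb1 was 0.235 ± 0.0158 in Ctrl, 0.497 ± 0.0447 in OGD and 0.394 ± 0.0277 in OGD + A-485. The ratio of Itga4 to Itgb1 was 0.101, 0.0408 and 0.0699, and that of Itga6 to Itgb1 was 0.115, 0.219 and 0.0933. The ratio of Itgav to Itgb1 was 0.149, 0.256 and 0.159, and that to Itgb5 was 0.978, 2.09 and 1.20, both highest in OGD. The ratio of Itgav to Itgb3 was 5.25 ± 0.795, 3.63 ± 0.459 and 61.9 ± 1.51, lowest in OGD. Between the vitronectin-receptor chains, Itgb3 to Itgb5 was 0.189 ± 0.0281, 0.578 ± 0.0455 and 0.0194 ± 0.00167. The Itgb3 share of this pair was thus highest in the OGD libraries and lowest in the OGD + A-485 libraries.

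**Figure D4:**
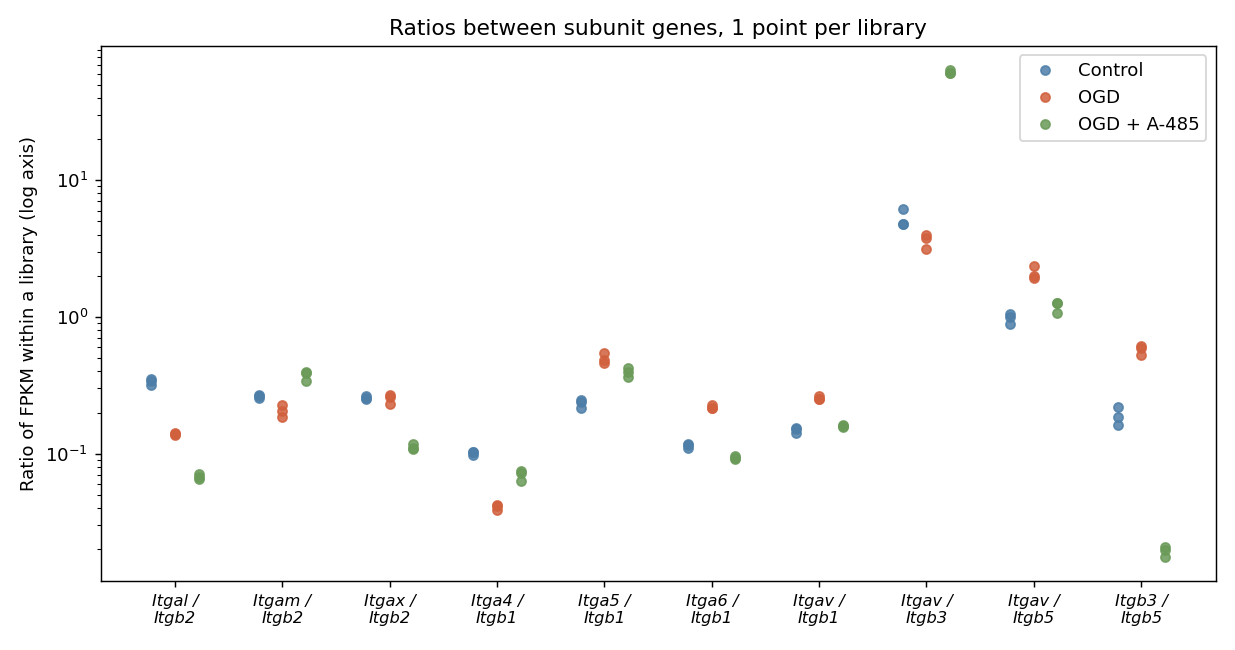
Ratio of FPKM between the subunit genes named on the horizontal axis in each library (vertical axis, logarithmic), for control, OGD and OGD + A-485. The ratio of Itgav to Itgb3 averages 5.25, 3.63 and 61.9 and that of Itgal to Itgb2 0.337, 0.139 and 0.0680, and Itga3 over Itgb1 is left out because Itga3 had 0 reads with A-485.

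The 3 members with the widest range of group means were Itga3 (4.11 on the log2 scale), Itgb3 (4.05) and Itgb2 (1.69). Over the 9 libraries, which fall into 3 groups and are therefore not independent points, the genes with the highest Pearson correlation to Itgb3 were Cntnap1 (r = 0.999), Prss16 (0.998) and Parp16 (0.997). Cntnap1 had group means of 8.41, 14.3 and 2.48 FPKM (Ctrl, OGD and OGD + A-485). For Itga3 they were Ptges (0.998), which encodes an enzyme of prostaglandin E2 synthesis, Cntnap1 (0.998) and Itgb3 itself (0.998). For Itgb2, Aatk (0.999) and Anxa3 (0.999) were the highest, of which Anxa3, an annexin, had means of 24.4, 50.4 and 66.1 FPKM.

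Of the 16 other integrin subunits in the table, 7 were tested. With OGD 2 were called higher and none lower, and with A-485 1 was higher and 1 lower. Over all genes tested, 11.2% were called higher and 9.81% lower with OGD, and 12.2% and 13.4% with A-485. For these 7 subunits the shares were 28.6% higher with OGD, and 14.3% each way with A-485. Their median log2 fold changes were 0.08 and -0.02. At an unadjusted limma p below 0.05 regardless of size, 1 was lower with OGD, Itga10 (-1.02, adjusted p = 0.0309, on 9 to 42 reads per library). Itga10 was not called here, but limma-voom and other alternatives given below called it. Itgam, the αM chain of complement receptor 3, was at 8.63, 8.80 and 8.0 FPKM in Ctrl, at 15.8, 15.6 and 14.0 in OGD and at 35.7, 40.4 and 41.2 in OGD + A-485. It was higher at both steps (log2 fold changes 0.83 and 1.36, adjusted p = 2.73e-05 and 1.11e-06). Itgax, the αX chain, averaged 8.27 ± 0.564, 18.6 ± 1.03 and 11.7 ± 0.640 FPKM, higher with OGD (1.16, adjusted p = 3.30e-06) and lower with A-485 (-0.67, adjusted p = 4.67e-05). Itgb7 averaged 78.6 ± 2.90, 76.9 ± 2.37 and 60.9 ± 3.96 FPKM and was not called (-0.03 and -0.34). Itga7, Itgae and Itgb4 were not called in these comparisons either, the last at 13 to 35 reads per library. Of the subunits not called with A-485, Itga7 and Itgb7 were lower at an unadjusted limma p below 0.05, without overlap with OGD. Their log2 fold changes of -0.48 and -0.34 (adjusted p = 0.00125 and 0.000708) were under the size required. Itga10 was higher at that p (0.83, adjusted p = 0.0618). Itga9, which did not pass the filter and was chosen after its values were seen, had 0 reads in all Ctrl and OGD libraries and 26 to 36 reads in each OGD + A-485 library, at least 27.5-fold higher than OGD against the same floor of 3 reads over the group.

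The partners of the integrins outside the receptor family were taken from lists of activators and adaptors, ligands, and membrane proteins that associate with integrins. Of the activators and adaptors, 41 of 46 were tested, of which 8 were called higher and 2 lower with OGD, and 9 higher and 8 lower with A-485, with median log2 fold changes of 0.20 and 0.20. The shares of this list were 19.5% higher and 4.88% lower with OGD, against 11.2% and 9.81% of all genes tested. For A-485 against OGD they were 21.95% higher and 19.5% lower, against 12.2% and 13.4%. Without Ctrl replicate 2, 1 activator or adaptor was called lower with OGD. Lims2, an adaptor that binds integrin-linked kinase, averaged 8.15 ± 0.880 FPKM in Ctrl, 32.0 ± 1.21 in OGD and 14.1 ± 0.484 in OGD + A-485 (log2 fold changes 1.96 and -1.17, limma adjusted p = 4.04e-07 and 2.87e-06). Src, a kinase activated at integrin adhesions, averaged 7.92, 14.9 and 5.93 FPKM, and its substrate Bcar1 averaged 3.50, 7.57 and 2.90. Both were called higher with OGD (0.90 and 1.09) and lower with A-485 (-1.31 and -1.37). Talin and kindlin-3, which switch on the β chains, were picked after their values were seen. Tln1 averaged 33.8, 64.1 and 87.7 FPKM, called with OGD (0.92) and not with A-485 (0.45), and Fermt3 averaged 60.1, 88.9 and 133, called in both (0.56 and 0.58).

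Of the ligands, 19 of 47 were tested, of which 5 were called higher and 1 lower with OGD, and 8 higher and 4 lower with A-485 (medians 0.38 and 0.40). With OGD, 26.3% were higher and 5.26% lower, against 11.2% and 9.81% of all genes tested. With A-485, 42.1% were higher and 21.1% lower, against 12.2% and 13.4%. Without OGD replicate 1, 3 ligands were called higher with OGD. Spp1, osteopontin, which αvβ3 binds, was the most abundant, at 1882, 1826 and 1774 FPKM in Ctrl, 2946, 3289 and 2867 in OGD and 1026, 1013 and 1124 in OGD + A-485. It was higher with OGD (log2 fold change 0.73, limma adjusted p = 9.20e-05) and lower with A-485 (-1.52, adjusted p = 9.90e-07), with no overlap between groups. Icam2, a ligand of αLβ2, had means of 4.58, 1.99 and 4.59 FPKM and was lower with OGD (-1.18) and higher with A-485 (1.18). Nrros, which is not a ligand itself but tethers latent TGF-β on microglia, was not called with OGD (-0.14) and stood at 85 ± 4.84 FPKM with A-485 against 25.8 ± 0.575 in OGD (1.71, adjusted p = 5.83e-08). Vwf, the von Willebrand factor bound by β3 integrins, averaged 0.677, 1.41 and 3.27 FPKM and was higher at both steps (0.96 and 1.15).

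Of the membrane partners, 19 of 21 were tested, of which 8 were called higher and 1 lower with OGD, and 6 higher and 1 lower with A-485 (medians 0.37 and 0.34). With OGD, 42.1% were higher and 5.26% lower, against 11.2% and 9.81% of all genes tested. With A-485, 31.6% were higher and 5.26% lower, against 12.2% and 13.4%. Sdc1, the proteoglycan syndecan-1, was the 1 called lower with OGD, from 21.7 ± 0.408 to 7.64 ± 0.312 FPKM (log2 fold change -1.49, limma adjusted p = 9.19e-07), and was not called with A-485 (0.46). Cd36, a scavenger receptor, was not called with OGD (0.37) and averaged 11.5 ± 1.25 FPKM with A-485 against 2.91 ± 0.472 in OGD (1.95, adjusted p = 5.23e-06). The tetraspanin Cd63 was not called with OGD (-0.04) and was called higher with A-485 (1.03, adjusted p = 8.39e-06). Icam5, itself a ligand of αLβ2, was the 1 called lower with A-485, with means of 1.68 in OGD and 0.835 FPKM in OGD + A-485 (-0.92, adjusted p = 0.00616). Without OGD replicate 3 this call was lost, and 0 membrane partners were called lower.

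**Figure D5:**
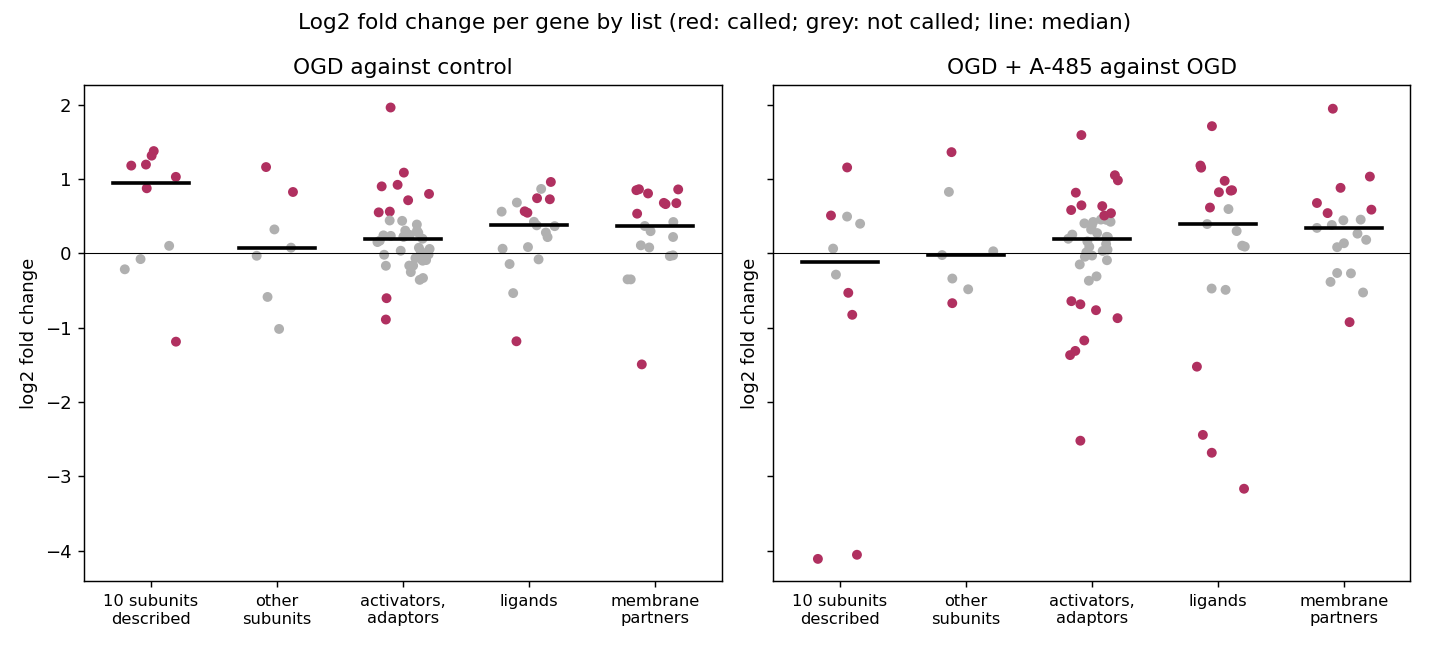
Log2 fold change (vertical axis) of each gene tested in the list of 10 subunits and in the lists of other subunits, activators and adaptors, ligands and membrane partners, for OGD against control (left) and OGD + A-485 against OGD (right). Red points were called, grey points were not, and black lines are medians, which for the 10 subunits are 0.95 (left) and -0.11 (right).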

How the data were processed

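RNA was sequenced from 9 libraries of BV2 cells, 3 per group, and libraries were assigned to groups by their titles. According to the study's methods, the authors filtered the reads for adapters, undetermined bases and quality, counted them per gene with featureCounts and deposited FPKM computed from gene length and read count. The aligner is not given in the sources used here. The processing notes name GRCm38 (mm10), and 98.3% of the identifiers that GENCODE M21 holds had its coordinates. Multiplied by gene length and a divisor per library, the deposited FPKM gave whole reads for 100% of the values (tolerance 0.01). The divisor already holds median-of-ratios factors, so rescaling by them could hardly move a result. At this depth, a single read on a 1 kb gene was worth 0.0618 to 0.0786 FPKM.

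The 16123 genes that averaged 0.2 FPKM or more were fitted as log2(FPKM + 0.1) with limma 3.58.1 (R 4.3.3), with a mean per group, a trended prior variance and Benjamini-Hochberg adjustment over all genes tested. Fold changes on this scale understate changes of low genes. Calls required p below 0.01 and an absolute log2 fold change over 0.5. Ratios and sums were tested with exact permutation tests in Python 3.11.15 (scipy 1.17.1). The members and gene lists were chosen with earlier results of these data known. Named genes were the members, the other subunits tested, the 4 genes of each remaining list with the largest change in either of the first 2 comparisons among those called without overlap between the groups (mean of at least 1 FPKM), and the 3 genes most correlated with each of the 3 most variable members, with others marked, and 2 genes that this rule selects are not reported here. Replicate numbers did not pair the libraries. The alternatives were pseudocounts of 1 and 0.01, a mean of at least 1 FPKM, no filter, 3 other scalings, removal of the median of 50 neighbouring genes, a replicate block, no trend, limma-voom on the reads, fits of 2 groups, an adjusted p under 0.05 and each library left out. Protein sequences and the search for motifs in the cytoplasmic tails were not analysed here.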

Additional observations from a re-analysis of the deposited data

How the results depend on the processing

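Most results kept their direction and their side of the threshold. Of the values of single genes under the alternatives, 1056 did so, 22 passed the threshold anew, 19 fell short of it and 13 changed sign. Some of these alternatives cannot change a fold change and act only on its p. They are the filters, the replicate block, no trend, fits of 2 groups, the adjusted p and a library left out of the group not compared. The 1056 therefore overstate how stable the fold changes were. Over all alternatives, members called higher with OGD were 5 to 6. Those called lower were 3 to 4 with A-485 against OGD and 2 to 3 against Ctrl. Itga3 was not tested with the filter at a mean of at least 1 FPKM. The number of members called higher with A-485 against OGD fell from 2 to 1, through the loss of Itgb5, with a pseudocount of 1, library totals, quantile normalization, limma-voom and neighbouring genes removed, and ranged from 1 to 3 when single libraries were left out (1 without OGD + A-485 replicate 1, 3 without OGD replicate 3 or OGD + A-485 replicate 2). Against Ctrl, it fell from 4 to 2 with library totals and limma-voom, through Itgb1 (0.39 and 0.39) and Itgav (0.48 and 0.48), and was 3 to 4 with libraries left out. The Itgb1 value of that comparison was also under 0.5 with a pseudocount of 1, quantile normalization (0.34) and neighbouring genes removed (0.45), and without Ctrl replicate 1 or 2 or OGD + A-485 replicate 2 or 3 (lowest 0.48).

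With the replicate block, the members called were 6 higher and 1 lower (OGD), 2 and 4 (A-485 against OGD) and 4 and 3 (A-485 against Ctrl), and no call of a gene named here changed. Libraries of the same number correlated at -0.0023 on average (-0.0463 to 0.0386), against 0.00115 for different numbers.

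Log2 fold changes that changed sign were small. With OGD they were Itga7 under quantile normalization (-0.0037) and Itgal with neighbouring genes removed (0.0185). With A-485 against OGD they were Itga5 under quantile normalization (-0.0831) and limma-voom (-0.001) and Itgae with library totals (-0.0124), quantile normalization (-0.1552), limma-voom (-0.0387) and neighbouring genes removed (-0.1097). With single libraries left out, values turned for Itgae (lowest -0.113, highest 0.159) and Itgb4 (-0.243 to 0.211), for Itga4 against Ctrl (-0.0873 to 0.0191) and for the log2 ratio of Itgax to Itgb2 with OGD (-0.0775 without OGD replicate 1 to 0.0291 without OGD replicate 2). The cause was not tested. The tested log2 ratios also moved with the pseudocount where a gene was low. With A-485 against OGD, Itgav to Itgb3 differed by 3.77, by 2.39 with a pseudocount of 1 and by 4.06 with 0.01. The number of ratios without overlap stayed at 32.

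Some counts on the other lists moved too, and smaller moves are not all listed. Over all alternatives, 4 to 7 membrane partners were called higher with A-485 against OGD. Against Ctrl, 2 to 7 activators and adaptors were called lower. With OGD, activators and adaptors called lower were 1 in place of 2 with a pseudocount of 1 or a mean of at least 1 FPKM, and 1 to 2 with libraries left out. Ligands called higher were 3 in place of 5 with library totals and quantile normalization, 8 with limma-voom and 3 to 5 with libraries left out, and those called lower were 3 in place of 1 without a filter and 2 with no trend or limma-voom. Membrane partners called lower were 2 in place of 1 with neighbouring genes removed. Other subunits called lower were 1 in place of 0 with library totals, quantile normalization, no trend, limma-voom and an adjusted p under 0.05, through Itga10, and 0 to 1 with libraries left out (1 without Ctrl replicate 1).

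With A-485 against OGD, other subunits called lower were 2 in place of 1 with a pseudocount of 0.01, library totals and limma-voom, and 1 to 2 with libraries left out (2 without OGD replicate 3 or OGD + A-485 replicate 1). Itga7 was the subunit added in each case. Other subunits called higher were 2 in place of 1 without a filter. Ligands called lower were 1 in place of 4 with a mean of at least 1 FPKM. Membrane partners called lower were 2 in place of 1 with quantile normalization, 3 with neighbouring genes removed and 0 to 1 with libraries left out (0 without OGD replicate 3, which lost Icam5). Against Ctrl, activators and adaptors called lower were 3 in place of 5 with a pseudocount of 1 and 2 with a mean of at least 1 FPKM, and ligands called lower were 2 in place of 4 and 1. Other subunits called higher were 2 in place of 1 without a filter and with quantile normalization, and 1 to 2 with libraries left out (2 without Ctrl replicate 1 or OGD + A-485 replicate 1 or 2), and those called lower were 1 in place of 0 with library totals, quantile normalization, limma-voom and neighbouring genes removed. Itga3 had 0 reads in each OGD + A-485 library, and Itga10, Itgae and Itgb4 had at most 42 reads in any library.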
